A study of Mus musculus with 6 samples.

Results

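Trdc, the gene for the constant region of the T cell receptor delta chain, was used to pick out gamma-delta T cells among single CD45+ cells sorted from the synovium of mice with antigen-induced arthritis. A cell was taken as a member when Cd3d, Cd3e and Cd3g together had at least 2 UMIs (unique molecular identifiers, each of which stands for 1 captured transcript), Trdc had at least 1, and Cd4, Cd8b1, Foxp3 and Ncr1 had 0. This rule found 164 of 32953 cells, here called Trdc T cells. Because the rule reads the same counts as the rest of the report, the levels of its own 8 genes are a description of the choice and carry no test.

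The mice were male C57BL/6 animals, bought at 8 weeks of age, with no transgene named in the sources used here. All were immunized under the skin with 10 μg methylated bovine serum albumin (mBSA) in complete Freund's adjuvant, and were challenged 21 days later with 100 μg mBSA inside the knee joint. They then received intraperitoneal injections of phosphate-buffered saline (the PBS group, 2 samples) or of 300 μg PEPITEM, a short peptide that limits the passage of leukocytes into inflamed tissue (the PEPITEM group, 4 samples), and cells were collected 3 days after the challenge. The cell barcodes carry a library number from 1 to 6, and no source used here ties a number to a sample, so PBS and PEPITEM could not be compared and the 6 libraries are of unknown treatment. No test was therefore possible between groups. Values are pooled over all libraries, with the spread over libraries beside them, and the intervals given (exact 95% Poisson for levels, exact 95% Clopper-Pearson for shares) cover counting error only, since the cells of 1 library share their source.

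Gamma-delta T cells recognise their targets with a receptor of 1 gamma and 1 delta chain, assembled from variable, joining and constant segments, and need neither Cd4 nor Cd8 to do so. In the mouse, some are programmed in the thymus to make interleukin-17 (type 17), and these settle in the dermis, the gums, the joint and other barrier or connective tissues before or soon after birth. Others are programmed to make interferon-gamma and killing molecules (type 1). CD27 on the cell surface is known to mark the second kind, and the receptors for interleukin-1 and interleukin-23, which drive interleukin-17, the first.

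The sequences that best show what these receptors are built from are the ends of 4 germline variable segments, each shown for its last 120 bases because that end is joined to the rest of the receptor gene. They were taken from GENCODE vM21 (GRCm38) and all lie in the last coding exon of their gene. Capitals mark the motif TANTACTGT, searched on the coding strand, which codes for the conserved tyrosine and cysteine near the end of a variable segment. Trdv4 is a delta segment at chr14:54075396-54075515 on the plus strand. The other 3 are gamma segments, Tcrg-V6 at chr13:19190810-19190929 (plus), Tcrg-V4 at chr13:19185387-19185506 (plus) and Trgv2 at chr13:19336573-19336692 (minus).
Trdv4: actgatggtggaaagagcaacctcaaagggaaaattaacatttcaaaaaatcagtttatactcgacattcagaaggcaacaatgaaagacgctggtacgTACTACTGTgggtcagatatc
Tcrg-V6: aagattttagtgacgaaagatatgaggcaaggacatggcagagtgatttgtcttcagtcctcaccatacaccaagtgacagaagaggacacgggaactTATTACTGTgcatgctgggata
Tcrg-V4: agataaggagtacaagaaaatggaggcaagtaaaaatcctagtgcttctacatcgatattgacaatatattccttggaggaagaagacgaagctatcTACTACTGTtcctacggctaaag
Trgv2: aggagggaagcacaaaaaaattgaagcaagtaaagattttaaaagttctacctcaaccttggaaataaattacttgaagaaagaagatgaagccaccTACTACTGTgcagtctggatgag
In each of the 4 segments the motif ended 12 to 14 bases before the end of the exon. Tcrg-V4 and Tcrg-V6 lie before the constant gene Tcrg-C1 (chr13:19214103-19217024, plus strand), and Trgv2 lies before Tcrg-C2 (chr13:19304649-19307551) on the minus strand.

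Trdc T cells made up 0.498% of all cells (interval 0.425% to 0.580%) and 12.0% of the 1371 T cells, defined by at least 2 CD3 UMIs and no Ncr1 (interval 10.3% to 13.8%). Libraries 1 to 6 held 26, 25, 26, 37, 21 and 29 members. As a share of T cells, the lowest library had 7.32% (library 5, interval 4.59% to 11.0%), the median was 11.7%, and the highest had 20.7% (library 4, interval 14.99% to 27.3%). The intervals of libraries 4 and 5 did not overlap. In those libraries, cells with no UMI of Trdc, Cd4, Cd8b1 or Foxp3 were 29.1% and 53.0% of the T cells. The make-up of the denominator thus differed too, and a denominator without such cells was not tested. Members had a median of 9219 UMIs and 2895 detected genes per cell (the lowest cell 1595 UMIs, the highest 59581), close in depth to the 217 Cd4 T cells (median 8437 UMIs) and the 220 Cd8 T cells (median 10489 UMIs) used as comparators. Those 2 populations followed the same rule with at least 1 UMI of Cd4 or of Cd8b1 in place of Trdc.

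Most members lay well inside the rule. They had a median of 10 Trdc UMIs (highest 61), and 8 had exactly 1. Just inside the rule, those 8 cells had Tcrg-C1 at 36.8 CPM (counts per 1000000, a gene's UMIs scaled to that many UMIs of the same cells) and Trac, the constant gene of the alpha chain, at 233 CPM. The 156 members with 2 or more had Tcrg-C1 at 194 CPM and Trac at 25.3 CPM. Just outside it, the 592 cells that met every other part of the rule but had no Trdc UMI held 8.07 CPM of Tcrg-C1 and 139 CPM of Trac, and 224 of them had a UMI of the neutrophil gene S100a8. A further 41 cells with enough CD3 and Trdc were left out with a UMI of Ncr1, and 14 of them had a Tcrg-C1 UMI. Among all cells, 138 barcode sequences occurred in more than 1 library. Only 1 member carried such a barcode, and no barcode was shared by 2 members.

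**Figure D1:**
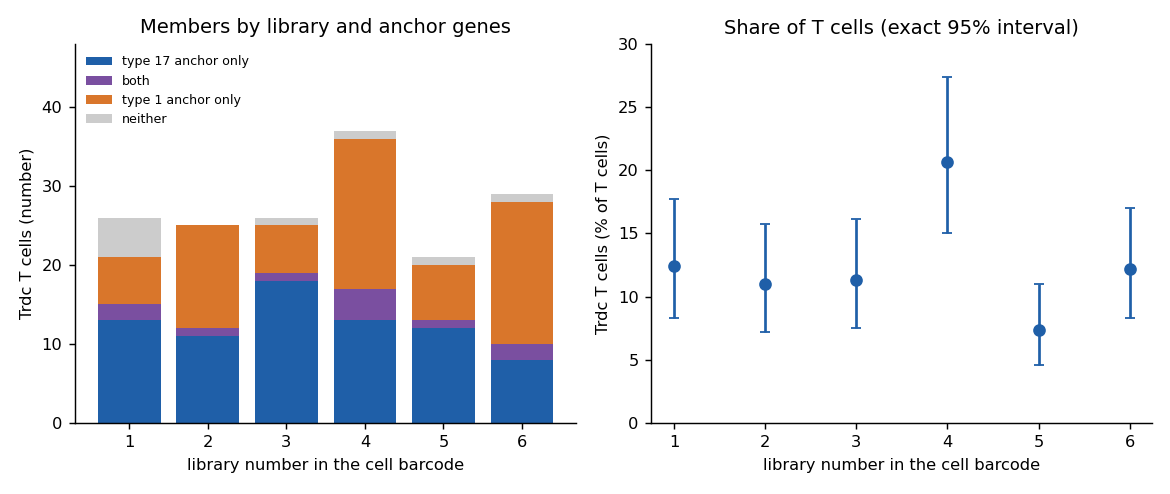
Left, the number of Trdc T cells in each of the 6 libraries, with bars divided by the anchor genes found in each cell (type 17: Il17a or Cd163l1, type 1: Tbx21, Ifng or Cd27). Right, the share of T cells that were Trdc T cells, with exact 95% intervals. Library 4 has the highest share and library 5 the lowest, and the balance of the 2 anchor sets differs among libraries.

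The receptor genes outside the rule fitted the label. Any gamma constant gene (Tcrg-C1, Tcrg-C2 or Tcrg-C4) was detected in 152 of 164 members (92.7%, interval 87.6% to 96.2%). Tcrg-C1 was at 187 CPM (interval 168 to 207) and was found in 70.7% of members, against 8.93 CPM and 5.53% of Cd4 T cells and 5.52 CPM and 4.55% of Cd8 T cells. Over the libraries it ran from 108 CPM through a median of 186 to 291 CPM in Trdc T cells, while the highest library of Cd4 T cells had 20.1 CPM, so the ranges did not overlap. Tcrg-C4 was at 102 CPM in Trdc T cells, 1.49 CPM in Cd4 T cells and 11.4 CPM in Cd8 T cells. Neither gene was exclusive to Trdc T cells. Of the Il1rl1 Gata3 cells, 35.0% had Tcrg-C4 (64.7 CPM) and 17.9% had Tcrg-C1 (52.1 CPM). The first coding exons of Tcrg-C1 and Tcrg-C2 share 321 of 330 bases (97.3%), so reads of those genes may be split between them, and their separate levels are uncertain. Tcrg-C4 shares 82.1% of that exon with Tcrg-C1.

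Trdv4, the delta variable segment shown above, was detected in 63 members (38.4%) at 205 CPM (interval 185 to 226), and was at 0 UMIs in both Cd4 and Cd8 T cells. Taking 3 UMIs over the population as the most that a count of 0 allows, its level was at least 183-fold higher in Trdc T cells than in Cd4 T cells. In the libraries it ran from 89.5 CPM (library 6) to 265 CPM (library 1), with a median of 219 CPM. It was not exclusive to them, since 15.4% of 247 Ncr1 cells without CD3 and 21.4% of 117 Il1rl1 Gata3 cells had a UMI. In B cells (median 5882 UMIs) and neutrophils (median 8149 UMIs), which should lack it, the shares were 0.0192% and 0.0224%.

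Tcrg-V6 was found in 21 members and Tcrg-V4 in 13. Of the 21 with Tcrg-V6, 19 also had Trdv4, and no member with Tcrg-V4 had either Trdv4 or Tcrg-V6. Tcrg-V6 and Trdv4 are known to pair in the receptor of fetal-type gamma-delta T cells. Trgv2 was found in 71 members, of which 51 also had Tcrg-C2, the constant gene next to it. It was about as frequent in members with Cd163l1 (42.5%) as in those without (44.0%). The libraries read the 3′ ends of transcripts, far from the variable segments, and 82 members had none of Tcrg-V4, Tcrg-V6 and Trgv2, so a missing segment says nothing about the receptor of a cell.

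Of 3 alpha-beta receptor genes tested, Trac and Trbc2 were called lower than in Cd4 and than in Cd8 T cells and Trbc1 was not called, and all 3 were detected. Trac was at 34.2 CPM (interval 26.4 to 43.6) in 23.8% of Trdc T cells, against 453 CPM in 94.0% of Cd4 T cells and 362 CPM in 92.7% of Cd8 T cells. Every library of Trdc T cells, from 9.88 to 64.8 CPM, was below every library of Cd4 T cells, from 262 to 636 CPM. Of the 39 members with Trac, 36 also had a gamma constant gene. Trbc1 and Trbc2, the near-identical constant genes of the beta chain, were at 294 and 373 CPM in Trdc T cells and 369 and 826 CPM in Cd4 T cells, and their split is uncertain for the same reason as that of the gamma genes. Rora, named as a marker of these cells, did not set them apart. It was at 1018 CPM in Trdc T cells, 1124 CPM in Cd4 T cells and 3891 CPM in Il1rl1 Gata3 cells, and stood above Cd8 T cells (178 CPM) only. Cd3g, which the rule uses, was in 98.8% of members.

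**Figure D2:**
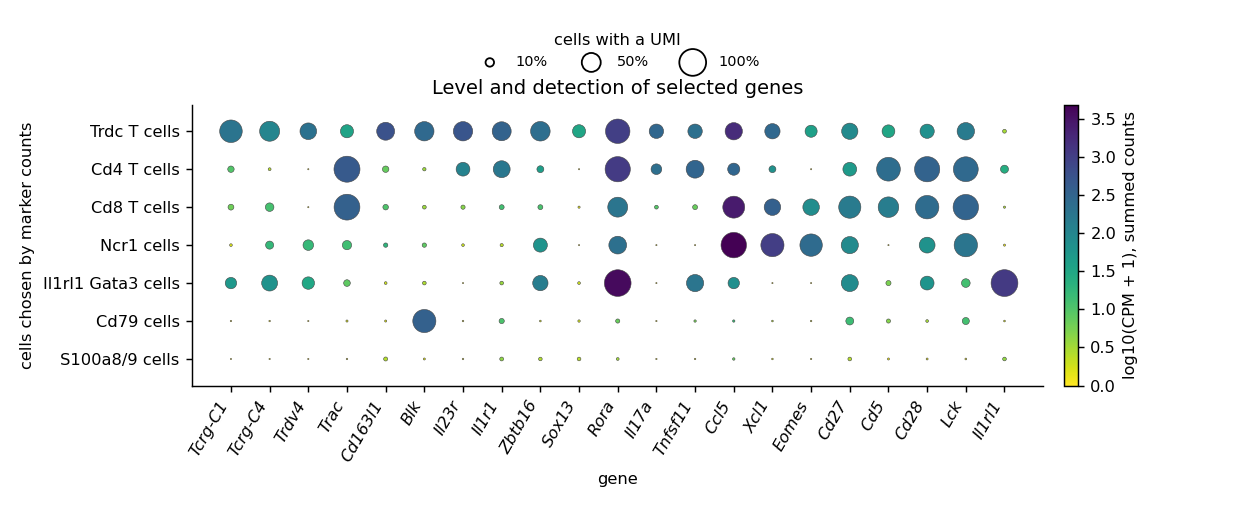
Selected genes (columns) in 7 cell populations chosen by marker counts (rows). Circle area is the percent of cells with a UMI and color the log10 of the summed level in CPM plus 1. Tcrg-C1, Cd163l1 and Sox13 stand out in the row of Trdc T cells, Rora is shared with Cd4 T cells, and Blk is shared with B cells (Cd79 cells).

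For comparisons across all genes, summed levels were compared after adding 10 CPM to each, among genes with at least 30 UMIs in both populations together, and a gene was called at 2-fold. Against Cd4 T cells, 186 of 9146 genes (2.03%) were higher in Trdc T cells and 210 (2.3%) lower. Of these, 124 were higher and 73 lower in all 6 libraries. Against Cd8 T cells, 320 of 8989 genes (3.56%) were higher and 86 (0.957%) lower, 228 and 63 of them in all 6 libraries. Several of these counts depended on the settings. Cd79a, Csf1r, Ly6g and Cpa3 are genes of other lineages, and 23 members had a UMI of at least 1 of them. Without these members, 223 genes were higher and 468 lower than in Cd4 T cells. Against Cd8 T cells, 314 were higher and 198 lower. The Cd4 and Cd8 T cells were not filtered in this way, so genes of other lineages could become lower through the filter alone. With 1 CPM added, the counts were 351 and 440 against Cd4 T cells, and 567 and 216 against Cd8 T cells. The median log2 fold over all genes tested was -0.02 and 0.06. Both comparisons use the same Trdc T cells, and 100 of the 8736 genes tested in both were higher than in either comparator and 25 lower.

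**Figure D3:**
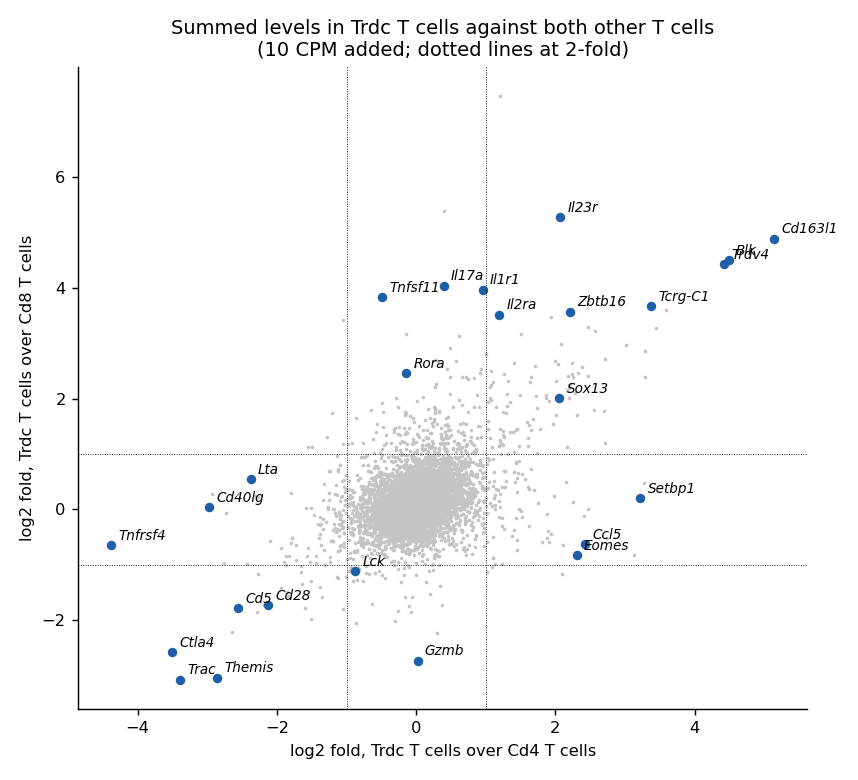
Log2 fold of the summed level (10 CPM added) in Trdc T cells over Cd4 T cells (horizontal axis) and over Cd8 T cells (vertical axis). Each grey point is 1 of 8736 genes, blue points are named genes, and dotted lines mark 2-fold. Cd163l1, Blk, Trdv4 and Tcrg-C1 lie far above both comparators, Trac, Themis and Ctla4 far below both, and Il17a and Tnfsf11 are high only over Cd8 T cells.

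Genes of the type 17 program were among those with the largest differences. Cd163l1, a scavenger receptor of the cell surface, was at 566 CPM (interval 533 to 601) in Trdc T cells and at 6.33 CPM (interval 3.69 to 10.1) in Cd4 T cells, a 35.3-fold difference with 10 CPM added. Its libraries spread from 420 through 569 to 720 CPM, all above the highest Cd4 library at 12.99 CPM. It was found in 44.5% of Trdc T cells, against 2.06% of neutrophils and 0.404% of B cells, and after thinning every cell to 2000 UMIs in 39.3% of Trdc T cells and 1.84% of Cd4 T cells. Trdc T cells were 164 of 32953 cells but held 58.1% of the 1852 Cd163l1 UMIs in the whole table.

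Blk, a Src-family kinase of B cells and of interleukin-17-making gamma-delta T cells, was at 273 CPM in Trdc T cells and 2.61 CPM in Cd4 T cells. B cells carry it too, in 74.2% of cells. Blk was found in 85 Trdc T cells. Of all 164 members, with or without Blk, 60 had a UMI of at least 1 of 8 B cell genes, and 6 had one of Cd79a. The part of B cell RNA in the Blk level was not tested. Il23r, the receptor for interleukin-23, was at 518 CPM in 51.8% of Trdc T cells, 116 CPM in 26.3% of Cd4 T cells and 3.68 CPM in 2.27% of Cd8 T cells. It was 4.19-fold higher than in Cd4 T cells, and the lowest library of Trdc T cells (356 CPM) was above the highest library of Cd4 T cells (167 CPM). Il1r1, the receptor for interleukin-1, was at 335 CPM against 168 CPM, and stayed below 2-fold (1.94) although it was higher in 6 of 6 libraries.

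Of the 5 type 17 transcription factor genes tested, 2 were called higher than in Cd4 T cells and none lower. These were Zbtb16 (PLZF, the factor of innate-like T cells) at 230 against 42.1 CPM, and Sox13, which was at 31.6 CPM in Trdc T cells with 0 UMIs in Cd4 T cells, at least 28.3-fold higher. Sox13 is needed for a part of the type 17 gamma-delta lineage. Kcnk1, a potassium channel, was likewise at 34.7 CPM with 0 UMIs in both comparators. The median log2 fold of the transcription factor genes was -0.02. Of 12 receptor genes of the program, 3 were higher (Il23r, Cd163l1 and 5830411N06Rik, a scavenger receptor gene related to Cd163l1) and 2 were lower (Ccr6 and Icos), with a median of 0.31. Of 12 further genes, Blk, Kcnk1 and Ckb were higher and none lower (median 0.69). Against Cd8 T cells, 4 of 5 transcription factor genes, 8 of 12 receptor genes and 11 of 12 further genes were higher and none lower, with medians of 2.45, 1.64 and 2.47.

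Of 8 cytokine genes of the program tested against Cd4 T cells, none was higher and 4 were lower (median log2 fold -0.68). Il17a was at 299 CPM (interval 275 to 324) in 28.7% of Trdc T cells and 225 CPM (interval 207 to 243) in 15.7% of Cd4 T cells, higher in 3 of 6 libraries, and its libraries overlapped widely (30.9 to 779 CPM against 7.79 to 427 CPM). The 5 highest of the 47 cells with Il17a held 59.7% of its UMIs, so a few cells set this level. The lower genes were Il17f at 46.8 against 122 CPM, Il22 at 2.11 against 25.7 CPM, Csf2 (GM-CSF) at 8.42 against 67 CPM, and Lta (lymphotoxin alpha) at 16.3 against 127 CPM. Il17f was lower in only 3 of 6 libraries. Against Cd8 T cells, 5 of 6 cytokine genes tested were higher, Il17a by 16.4-fold. Of the 1299 Il17a UMIs in the table, Trdc T cells held 43.7% (25.4% to 88.5% over the libraries) and Cd4 T cells 46.5%.

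Tnfsf11 (RANKL), which drives the formation of bone-resorbing osteoclasts, was at 221 CPM in Trdc T cells, 313 CPM in Cd4 T cells and 6.25 CPM in Cd8 T cells. It was in 28.7% of Trdc T cells, and its libraries ran from 103 to 321 CPM, inside the range of Cd4 T cells (52.4 to 466 CPM). Areg, a growth factor of repair, was also at similar levels in Trdc and Cd4 T cells (115 and 129 CPM) and at 4.04 CPM in Cd8 T cells. Trdc T cells held 1.93% of the 11319 Areg UMIs of the table. Of 6 genes for growth and repair tested against Cd8 T cells, 4 were higher (Areg, Vegfa, Tnfsf11 and Lif), and none of 7 was called against Cd4 T cells in either direction.

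Il23r and Il17a were 38.6-fold and 16.4-fold higher than in Cd8 T cells, and their promoters are shown as those of a cytokine gene and a receptor gene of the type 17 program (RefSeq, GRCm38.p6, 250 bases before and 50 after the start of the gene). Capitals mark the motif AGGTCA, a half-site of nuclear receptors, or its reverse complement TGACCT. Il17a lies on the plus strand, at chr1:20730655-20730954. Il23r lies on the minus strand, at chr6:67491806-67492105.
Il17a: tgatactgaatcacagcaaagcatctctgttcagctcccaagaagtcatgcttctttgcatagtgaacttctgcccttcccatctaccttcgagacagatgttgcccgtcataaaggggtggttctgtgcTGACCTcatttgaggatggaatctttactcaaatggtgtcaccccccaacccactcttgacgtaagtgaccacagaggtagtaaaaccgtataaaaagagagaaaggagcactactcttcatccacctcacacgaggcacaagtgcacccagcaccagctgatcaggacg
Il23r: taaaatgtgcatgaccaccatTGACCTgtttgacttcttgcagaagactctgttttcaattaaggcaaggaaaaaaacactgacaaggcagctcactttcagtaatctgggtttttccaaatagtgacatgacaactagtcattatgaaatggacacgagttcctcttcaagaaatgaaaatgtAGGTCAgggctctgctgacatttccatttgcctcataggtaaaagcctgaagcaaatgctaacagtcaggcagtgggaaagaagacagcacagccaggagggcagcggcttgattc
Il17a had 1 match, starting at -120 from the start of the gene, and Il23r had 2, at -229 and -66. Of the other genes searched, Il17f had 1, at -58, and no match to these letters was found in the windows of Cd163l1, Sox13, Xcl1 or Eomes or in either of the 2 windows of Il1r1, another receptor gene of the program. Of all 32851 promoter windows of this length, 16.3% held a match on either strand, and a match is not evidence of binding.

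Type 1 genes were more often higher than in Cd4 T cells and more often lower than in Cd8 T cells. Of 18 of them tested against Cd4 T cells, 8 were higher and none lower (median log2 fold 0.86), and of 20 tested against Cd8 T cells none was higher and 3 were lower (median -0.64). Of the natural killer genes, 4 of 4 tested (Klrb1c, Klre1, Klra9 and Eomes, the last on both lists) were higher than in Cd4 T cells (median 1.87). None of 4 was called against Cd8 T cells. The natural killer list summed to 186 CPM in Trdc T cells and 16.4 CPM in Cd4 T cells. Its genes could thus reach the limit of 30 UMIs mainly through Trdc T cells, and this limit favored a count of 4 of 4. The part of natural killer genes in the type 1 result was not tested. Ccl5, a chemokine of killer cells, was at 1699 CPM in Trdc T cells, 307 CPM in Cd4 T cells and 2640 CPM in Cd8 T cells. Xcl1, a chemokine for cross-presenting dendritic cells, was at 280, 68.1 and 371 CPM, and Eomes, a factor of memory and killer cells, at 39.5, 0 and 78.0 CPM. Eomes was thus at least 35.3-fold higher than in Cd4 T cells. In that comparison it reached the limit of 30 UMIs only through Trdc T cells. The 3 lower genes were Nkg7, Gzmk and Gzmb, and Gzmb, a granzyme of killer cells, was 6.64-fold lower than in Cd8 T cells (55.3 against 424 CPM). Gzma, although called higher than in Cd4 T cells, was found in 7 members, and the highest 5 held 97.5% of its UMIs. Ifng, the signature cytokine of type 1 cells, was at 67.4 CPM in Trdc T cells and 68.5 CPM in Cd4 T cells, was found in 17 members, and ran from 0 to 244 CPM over the libraries.

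Of 15 genes for T cell receptor signalling tested, 5 were lower, 10 were not called and none was higher, against Cd4 T cells (median log2 fold -0.27) and against Cd8 T cells (median -0.40). Cd2, Cd5, Cd6 and Cd28 were lower in both comparisons, Trat1 in the first and Lck in the second. Cd5, a brake on receptor signalling whose level follows signal strength, was at 32.1 CPM against 237 CPM in Cd4 and 135 CPM in Cd8 T cells. Cd28, the main costimulatory receptor, was at 68.9 CPM against 334 and 251 CPM. For Cd5 and Cd28, the highest library of Trdc T cells (55.6 and 111 CPM) was below the lowest of Cd4 T cells (184 and 226 CPM). Themis, which alpha-beta T cells need to mature in the thymus, was at 75.8 CPM against 611 and 693 CPM. Cd247, the zeta chain of the receptor, was higher in 6 of 6 libraries than in either comparator (639 against 345 and 425 CPM), below 2-fold.

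Of the 10 genes named for the lowest folds against Cd4 T cells, Tnfrsf4 (OX40), a costimulatory receptor, was 20.8-fold lower (3.68 against 274 CPM), Ctla4, an inhibitory receptor, 11.4-fold (8.42 against 199 CPM), and Cd40lg, the signal that helper cells give to B cells, 7.85-fold (10.5 against 151 CPM). Each was lower in 6 of 6 libraries. Of 14 genes of tissue residency, Itgae (integrin alpha E), Il2ra (the alpha chain of the interleukin-2 receptor) and Pdcd1 (PD-1) were higher than in Cd4 T cells and Ctla4 lower (median log2 fold 0.32). Il2ra was at 427 against 182 CPM, and Pdcd1 at 133 against 50.2 CPM, found in 48.8% of Trdc T cells and 24.4% of Cd4 T cells.

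Of the genes named because they were among the largest differences from Cd4 T cells, several have less known roles in T cells. Abi3bp was at 137 against 2.23 CPM, St3gal3, a sialyltransferase, at 287 against 40.2 CPM, and Clnk, an adaptor of immune receptor signalling, at 113 against 2.61 CPM. Setbp1 (239 CPM), Auts2 (108 CPM), Bend4 (88.9 CPM) and Cables1 (102 CPM) were likewise above Cd4 T cells, and Setbp1, Auts2 and Bend4 were within 2-fold of Cd8 T cells. Gm43434, found in 42.1% of Trdc T cells and at 0 UMIs in Cd4 and Cd8 T cells, lies antisense to Trdc and overlaps it (chr14:54128298-54146287, minus strand), so it may share reads with the gene that chose the cells.

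The pooled values hide a division within the Trdc T cells. As anchors, Il17a and Cd163l1 were taken for the type 17 side and Tbx21 (T-bet), Ifng and Cd27 for the type 1 side, a cell counting with at least 1 UMI. Only type 17 anchors were found in 75 members (45.7%), only type 1 anchors in 69 (42.1%), both in 11 (6.71%) and neither in 9 (5.49%). None of the 17 cells with Ifng had a type 17 anchor, but 8 of 54 with Tbx21 and 3 of 60 with Cd27 did. A type 1 anchor was found in 5 of 47 cells with Il17a and 11 of 73 with Cd163l1. After thinning to 2000 UMIs the shares were 41.7%, 23.9%, 3.07% and 31.3%, so the count of cells with neither depends on depth. A type 17 anchor was found in 19.8% of Cd4 T cells, 5.45% of Cd8 T cells, 2.09% of neutrophils and 0.442% of B cells. A type 1 anchor was found in 46.1% of Cd4 T cells (interval 39.3% to 53.0%), near the 48.8% of Trdc T cells, in 80.9% of Cd8 T cells, 91.5% of Ncr1 cells, 10.1% of B cells, in which Cd27 was in 8.52%, and 1.94% of neutrophils.

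The 2 kinds differed in number among libraries. Cells with type 17 anchors only were 13, 11, 18, 13, 12 and 8 of the members in libraries 1 to 6, and cells with type 1 anchors only were 6, 13, 6, 19, 7 and 18. The type 17 share therefore ran from 27.6% in library 6 to 69.2% in library 3, and the type 1 share from 23.1% in libraries 1 and 3 to 62.1% in library 6. The treatments of these libraries are not known, and the number of cells per library is small.

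The division extended far past the 5 anchors. Between the 75 and 69 cells, 463 of 6616 other genes (7%) were at least 2-fold higher on the type 17 side and 358 (5.41%) at least 2-fold lower. With 1 CPM added in place of 10, the counts were 567 and 558. Since the anchors that made the split come from the same cells, these counts describe it and test nothing. All 5 type 17 transcription factor genes tested were higher on the type 17 side. So were 10 of 10 receptor genes, 12 of 12 further genes of the program and 4 of 4 cytokine genes. Of 15 type 1 genes, 13 were lower there and none higher. UMIs on the type 17 and type 1 sides were 49 and 2 for Sox13 and 0 and 69 for Eomes. Several genes thus reached the limit of 30 UMIs mainly through 1 side, and this limit favored such counts. Il23r was at 1071 CPM in 70 of the 75 cells and at 40.7 CPM in 3 of the 69. Il1r1 was at 702 against 13.9 CPM, Blk at 574 against 8.57 CPM and Tnfsf11 at 429 against 9.64 CPM, each higher in 6 of 6 libraries. Ccl5 was at 2.53 CPM in 2 of the 75 cells and at 3296 CPM in 61 of the 69. Xcl1 had 0 UMIs on the type 17 side and 552 CPM on the other, at least 145-fold higher.

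Of 6 gamma-delta receptor genes tested, Trdv4, Tcrg-V6 and Tcrg-C1 were higher on the type 17 side and none was lower. Trdv4 and Tcrg-V6 reached the limit of 30 UMIs mainly through that side. Tcrg-V6 had 26 UMIs in 16 type 17 cells and 5 UMIs in 3 type 1 cells, and was higher in 4 of 6 libraries. Trdv4 was found in 52 of the 75 type 17 cells (445 CPM) and in 1 of the 69 type 1 cells (1.07 CPM). Of the 73 members with Cd163l1, 60 had Trdv4, against 3 of the 91 without. The related scavenger receptor gene 5830411N06Rik was found in 7 of the 73 cells with Cd163l1 and 23 of the 91 without. It was in 4 of the 13 cells with Tcrg-V4, 1 of the 21 with Tcrg-V6, 19 of the 47 with Il17a and 11 of the 117 without Il17a. Its overlap with Trdv4 was not tested. Il17a was in 30 of 63 cells with Trdv4 and 2 of 13 with Tcrg-V4. Cells with and without Cd163l1 were sequenced to similar depth (medians of 9060 and 9874 UMIs). Tcrg-C1 was 3.35-fold higher on the type 17 side (296 against 81.4 CPM), with the reservation on reads shared with Tcrg-C2. Tcrg-C2 (101 against 92.1 CPM), Tcrg-C4 (79.8 against 126 CPM, lower in 5 of 6 libraries) and Trgv2 (97.5 against 58.9 CPM, in 36 of the 75 and 30 of the 69 cells) stayed within 2-fold.

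Lck, the kinase that starts signalling from the T cell receptor, was nearly limited to 1 side. It had 4 UMIs in 2 of the 75 type 17 cells (5.07 CPM) and 251 UMIs in 62 of the 69 type 1 cells (269 CPM), which was close to the 274 CPM of Cd4 T cells. Cd2, Cd5, Cd6 and Cd28 were also lower on the type 17 side, Cd28 at 20.3 against 114 CPM, while Lat and Thy1 were higher, Thy1 just past the limit at 2.003-fold. Of 5 genes of naive and recirculating cells tested, 3 (Ccr7, Klf2 and Lef1) were lower on the type 17 side and none higher, and Lef1, a transcription factor of young T cells, was at 313 CPM on the type 1 side against 13.9 CPM. Among genes of residency, Cxcr6 was at 505 against 39.6 CPM and Il2ra at 855 against 29.99 CPM, both higher on the type 17 side. Of 13 residency genes tested, 8 were higher on the type 17 side and 1, Itga1, lower. Of 4 natural killer genes tested, 4 were lower there. Each had 0 or 1 UMI on that side, so they reached the limit of 30 UMIs through the type 1 cells. Genes of other lists were called too, several of them on a few cells. On the type 17 side, 2 of 3 B cell genes tested (Cd79b and Ebf1), 2 of 3 dendritic cell genes (H2-Aa and H2-Ab1), 2 of 7 neutrophil genes (Ngp and Ltf) and 5 of 12 immediate early genes (Fosb, Jund, Egr1, Dusp1 and Atf3) were higher, while Retnlg of the neutrophil genes and Mrc1 and Cd14 of 11 monocyte and macrophage genes were lower. Ebf1 and Ngp were each found in 1 cell of each side. On the type 17 and type 1 sides, Ltf was in 3 and 2 cells, H2-Aa in 7 and 4, and H2-Ab1 in 9 and 6. Retnlg was in 1 and 3 cells, Mrc1 in 3 and 3, and Cd14 in 7 and 8. None of Ebf1, Ngp, Ltf, H2-Aa and H2-Ab1 was higher in more libraries than it was lower. Cd79b was in 14 of the 75 and 3 of the 69 cells, and was higher in 5 of 6 libraries. The part of these cell types' RNA in the split was not tested. Genes outside the lists with large differences included Igf1r, the receptor for insulin-like growth factor, at 1000.5 against 72.8 CPM, Nebl at 482 against 17.1 CPM and Prkch, a protein kinase C of T cells, at 46.9 against 1268 CPM. These 3 were chosen after their values had been seen.

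**Figure D4:**
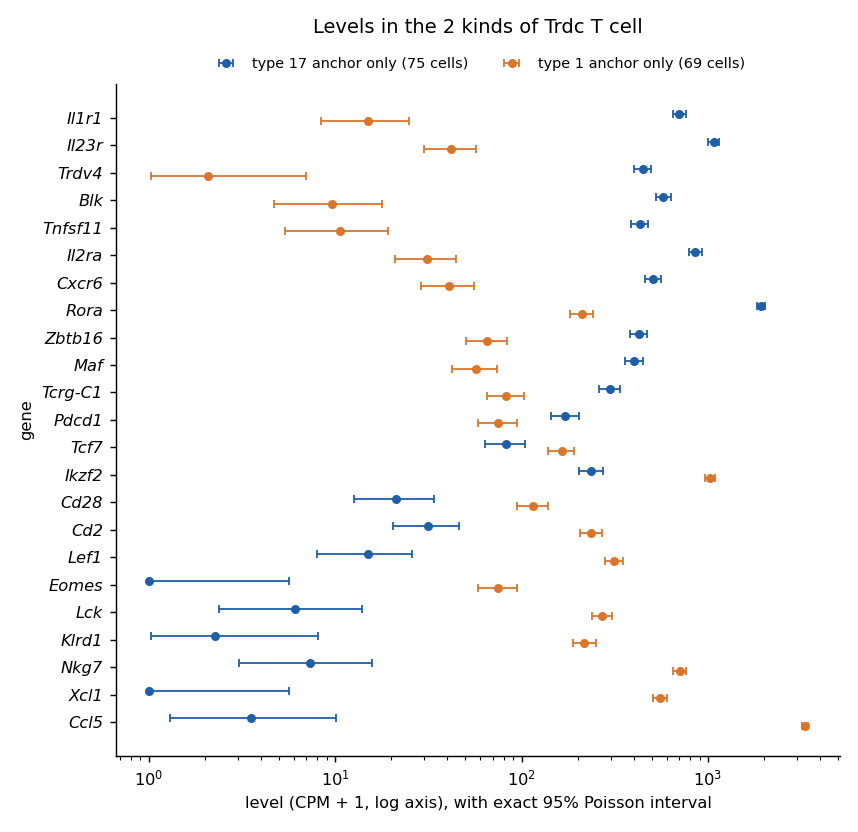
Summed level (CPM plus 1, log axis) of 23 genes in Trdc T cells with type 17 anchors only (75 cells, blue) and type 1 anchors only (69 cells, orange), with exact 95% Poisson intervals. Il1r1, Il23r and Trdv4 at the top are far lower in the orange cells, and Ccl5, Xcl1 and Lck at the bottom are near 0 in the blue cells.

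The same division was visible cell by cell. Over 38 type 17 genes and 21 type 1 genes of the lists, anchors included, members had a median of 18 and 4 genes with a UMI, and the 2 numbers ran against each other (Spearman's rho -0.68 over 164 cells, -0.70 over 163 cells thinned to 2000 UMIs, given as a description, since the cells share 6 libraries). At least 13 type 17 and under 7 type 1 genes were found in 92 cells, the reverse in 60, both high numbers in 3 and neither in 9. These limits were set after the data had been seen, and 20 cells lay within 1 gene of one of them. Of the 63 cells with Trdv4, 62 were among the 92.

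**Figure D5:**
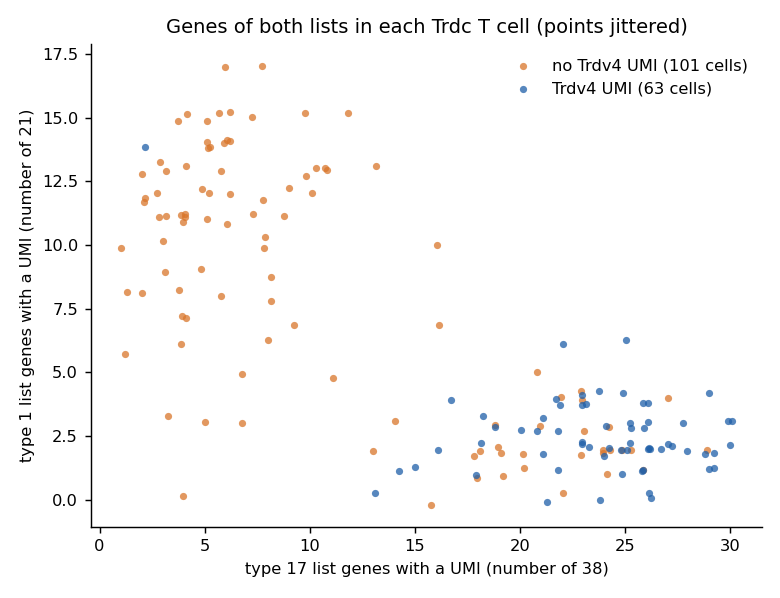
Each point is 1 of 164 Trdc T cells, with the number of type 17 list genes (of 38) and of type 1 list genes (of 21) that had a UMI, jittered to part overlapping points. Cells with Trdv4 (blue, 63 cells) lie at the lower right, except 1. Cells without it (orange, 101 cells) are found in both places, more of them at the upper left.

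With the same gene required on both sides, type 17 Trdc T cells still differed from type 17 Cd4 T cells. The 47 members with Il17a were set beside the 34 Cd4 T cells with Il17a, and 415 of 4756 genes (8.73%) were higher and 344 (7.23%) lower. Themis had 0 UMIs in the 47 members and 539.7 CPM in the Cd4 T cells, at least 80.6-fold higher there. Cd6 (295 CPM), Cd40lg (196 CPM) and Tnfrsf4 (393 CPM) were also at 0 UMIs in the members, and Lck was at 2.23 against 274 CPM. In the other direction, Zbtb16 was at 419.6 CPM in the members and at 0 UMIs in the Cd4 T cells, at least 73.6-fold higher. Il17f (172 against 490.3 CPM) and Csf2 (13.4 against 124 CPM) were lower in the members, in 4 and 3 of 6 libraries. Il22 (2.23 against 89.3 CPM) was lower too, but was found in 4 of the Cd4 T cells and 1 member. Pdcd1 was at 214 against 32.3 CPM, higher in 6 of 6 libraries.

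Type 1 Trdc T cells were set beside type 1 Cd8 T cells in the same way. For the 80 members and 178 Cd8 T cells with Tbx21, Ifng or Cd27, 125 of 8269 genes (1.51%) were higher and 64 (0.774%) lower. Trac was at 45.9 against 355 CPM and Themis at 131 against 689 CPM. Gzmb was at 76.5 against 444 CPM and Gzmk at 1.91 against 36.4 CPM, both lower in 6 of 6 libraries. Klrb1c (NK1.1) was higher, at 44.9 against 13.1 CPM, also in 6 of 6. Camp and Ngp, which lead this comparison by fold, came from 1 member each and are neutrophil granule genes.

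Markers of other cells were detected, with most UMIs of several lists in a few members. Of the 164 members, 78 had a UMI of a monocyte or macrophage gene of the lists, 60 of a B cell gene, 56 of a natural killer gene, 33 of a dendritic cell gene and 13 of a neutrophil gene. Of 10 neutrophil genes, all were detected and summed to 12529 CPM, led by S100a9 (4633 CPM), but they came from libraries 2 and 5 (37912 and 44703 CPM, against at most 24.7 CPM in the others), with 99.96% of the UMIs in 5 cells. Only 3 members had S100a8 or S100a9. Monocyte and macrophage genes (11 of 11 detected, 2199 CPM, led by Lyz2, 205 to 4347 CPM over the libraries) had 62.5% of their UMIs in 5 cells, and dendritic cell genes (7 of 8 detected) 77.5%. B cell genes summed to 139 CPM (7 of 8 detected, led by Ighm, 53.6 to 503 CPM over the libraries), natural killer genes to 186 CPM, led by Klre1. Of 7 mast cell genes 5 were at 0 UMIs, of 7 fibroblast genes 6, and of 7 erythroid genes 5. Of the type 2 genes, Il13 was at 0 UMIs, Il5 at 1 and Il1rl1 in 3 members, while Gata3, which T cells of many kinds use, was at 71.0 CPM. Rag2 and Dntt, genes of thymic precursors, were at 0 UMIs, and Rag1 had 3. The part of this RNA in the other results was not tested, beyond the counts without 23 members given above.

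At least 1 UMI of Mki67 or Top2a, genes of dividing cells, was found in 46 members (28.05%, interval 21.3% to 35.6%), in 39.2% of Cd4 T cells (interval 32.6% to 46.0%) and in 28.6% of Cd8 T cells (interval 22.8% to 35.1%). B cells (21.6%) and neutrophils (22.3%) had such UMIs too, so no population here served as a background without them. With at least 5 UMIs the shares were 9.76% (16 members), 13.8% and 7.27%. By anchors, 32.0% of type 17 and 24.6% of type 1 members had at least 1 UMI, with overlapping intervals, and 10.7% and 11.6% had at least 5, so the order depends on the limit. Of 13 cycle genes tested against Cd4 T cells, Ube2c, Ccnb2 and Cenpf were lower and none was higher. The 5 highest members held 58.3% of the UMIs of these genes, and the summed level ran from 111 to 1532 CPM over the libraries. Of 14 metabolic genes tested against Cd4 T cells, 4 were lower and none was higher. The lower genes were Hif1a (235 against 536 CPM), Cd36, Lpl and Slc16a3. Genes of other cells were called in this comparison too. Of 10 neutrophil genes tested, 5 were lower and 1, Camp, was higher. C1qc and Mrc1 of 11 monocyte and macrophage genes were lower, and so were Cd209a and H2-Ab1 of 5 dendritic cell genes. Against Cd8 T cells, 6 of 8 neutrophil genes were higher and none lower. The part of such RNA in the metabolic calls was not tested.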

How the data were processed

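Single CD45+ synovial cells were profiled with Chromium 3′ chemistry in 6 samples (2 PBS, 4 PEPITEM). As the study's methods describe, the authors processed the reads with Cell Ranger 7 against mm10. They removed ambient RNA with SoupX and doublets with DoubletFinder, filtered cells with Seurat, and deposited 1 table of whole UMI counts per gene and cell (20394 genes, 32953 cells, 47273569 to 123367661 UMIs per library number). Removal of ambient RNA can lower the counts of genes abundant in free RNA.

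Counts were summed over the members and over comparators chosen by marker counts, and scaled to CPM. Folds used 10 CPM added and genes with at least 30 UMIs in both populations together, without the 8 genes of the rule. The step was tested on simulated counts with planted changes larger than 2-fold and no spread between cells or libraries. That test says nothing about genes whose UMIs lie in a few cells. PBS and PEPITEM could not be compared, since the library numbers could not be assigned to samples. Between cell populations, chosen on the same counts, no model was fitted and folds are descriptions, although every library held each of them. Genes were named from the fixed lists, the 15 highest and 10 lowest folds against each comparator among those with the same direction in every library with at least 10 cells of both populations, and, for comparisons among or beside anchor cells, genes with large folds chosen after their values were seen. Certain genes are not reported here, and were left out of the lists, the anchors and the matched comparison, which therefore rest on fewer genes than first planned. Thinning drew each cell down to 2000 UMIs and left out 1 member. Alternatives included TMM factors from edgeR 4.0.16. Python 3.11.15 was used with numpy, scipy and pandas. The members and lists were chosen with earlier results of these data known, and the comparisons with anchor-matched Cd4 and Cd8 T cells after the values had been seen.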

Additional observations from a re-analysis of the deposited data

How the results depend on the processing

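No paired analysis was possible because the PBS and PEPITEM samples could not be matched to the library numbers in the barcodes. Between cell populations, which every library held, a fit blocked by library was not run, and the number of libraries with the same direction is given instead. With 1 CPM added in place of 10, low genes passed 2-fold more often, with 351 genes higher and 440 lower than in Cd4 T cells, 567 higher and 216 lower than in Cd8 T cells, and 567 higher and 558 lower on the type 17 than on the type 1 side. Leaving out members with Cd79a, Csf1r, Ly6g or Cpa3 raised the genes lower than in Cd4 T cells to 468. Those lower than in Cd8 T cells rose to 198. Leaving out members with Trac, an alternative added after seeing the data, raised the genes lower than in Cd8 T cells to 137. In neither case were the Cd4 and Cd8 T cells filtered, so genes of the RNA left out could become lower through the filter alone. The share of cells in the rule fell to 0.379% without members with Trac. Against all T cells as denominator that share was 12.0%. Thinning to 2000 UMIs lowered the share of members with a type 17 anchor from 52.4% to 44.8% and with a type 1 anchor from 48.8% to 27.0%.

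With each library left out in turn, genes higher than in Cd4 T cells numbered 165 to 213 and lower 179 to 264, higher than in Cd8 T cells 304 to 370 and lower 90 to 111. Between the 2 sides they numbered 429 to 461 higher and 326 to 379 lower. The share of cells in the rule was 0.439% to 0.606%, of members with a type 17 anchor 48.6% to 56.3% and with a type 1 anchor 44.4% to 52.9%. For the 50 results named by fold, 683 of 750 alternative values lay inside their counting intervals, and no called fold changed direction. These results had been chosen for the same direction in every library. A lower UMI limit leaves each fold unchanged, and a smaller added CPM cannot reverse it. Little change of direction was thus possible. Each result is 1 gene against 1 comparator, and genes named against both comparators count for both. Summed levels of the lists moved past their counting intervals in 155 of 338 alternatives.

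The 164 members limit all of this. A gene at 0 UMIs in them allows up to 3 UMIs, and cells of 1 library are not independent. Genes whose UMIs lie in a few cells, such as Il17a, Ifng and Gzma, have more error than their intervals show.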
